A study of Mus musculus with 44 samples.

Results

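Aquaporins are membrane channels that carry water, and in some cases glycerol and other small solutes, along an osmotic or chemical gradient. The 6 genes described here, Aqp1, Aqp3, Aqp4, Aqp5, Aqp8 and Aqp11, were chosen by name as aquaporins of the gastric wall and its glands, and were taken from the 31484 gene names of the data set by summing the transcripts of each gene. Of the 6, 5 passed the filter on low counts and were tested among 14901 genes, and Aqp8 did not pass it. The members were measured in mRNA from the gastric corpus, the acid-secreting part of the stomach, in 44 libraries from BalbC mice aged 13 months.

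KO mice lack the beta subunit of the gastric proton pump, H+/K+ATPase (gene Atp4b), and secrete no acid. The WT mice carry the pump. Each genotype was given either NTZ (netazepide, labelled yf after its code YF476), an antagonist of the gastrin/CCK2 receptor that gastrin acts on, or PEG, the polyethylene glycol vehicle. The WT libraries numbered 11 with PEG and 9 with NTZ, and the KO libraries 13 with PEG and 11 with NTZ. The deletion is present in every cell of the KO mice, so no value can be assigned to the loss in one cell type. A library was named by its animal number. A pair of WT/PEG libraries share one animal number, and the number 110 occurs once in each KO group. KO/PEG has more libraries than the mice that the study lists for that group, so some of these libraries may share a mouse, and which ones was not given in the sources used here. All 13 entered as separate samples. Where libraries share a mouse, n is too large, and the SD, SE and p-values are too small to stand for the spread between mice.

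An aquaporin has 6 membrane-spanning helices and a pore lined by a pair of short loops that each carry the residues asparagine, proline and alanine, the NPA box. Parietal cells carry Aqp4 in their basolateral membrane, where it is anchored by the dystrophin complex. Aqp5 is the channel of the apical membrane of secretory glands such as salivary glands, and in the stomach it is known from the glands of the antrum. Aqp3 is an aquaglyceroporin, which also passes glycerol, and is found in the surface mucous epithelium and in squamous epithelium. Aqp1 is the channel of red cells and of endothelium. Aqp8 is known from colon, liver and pancreas, and Aqp11 is an unorthodox member that resides in the endoplasmic reticulum.

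The coding sequence around the first such box is shown for 5 of the members from the annotation used (GENCODE vM21, GRCm38), with none printed for Aqp4, because this is the pore element that unites them and the place where Aqp11 departs from the rest. Each line is 30 bases of an exon, 5′ to 3′ on the coding strand, and the 9 bases in capitals are the codons of the box.
Aqp1, exon 1, chr6:55336707-55336736, plus strand: gctcacctcAACCCTGCGgtcacactgggg
Aqp3, exon 3, chr4:41094807-41094836, minus strand: gcccacttgAACCCCGCTgtgaccttcgca
Aqp5, exon 1, chr15:99591467-99591496, plus strand: ggccacatcAATCCGGCCattactctggcc
Aqp8, exon 3, chr7:123464193-123464222, plus strand: ggacacttcAACCCTGCTgtgtcgctggca
Aqp11, exon 1, chr7:97737673-97737702, minus strand: acagctagcAACCCGTGCggcgtgatgatg
In Aqp1, Aqp3, Aqp5 and Aqp8 the third codon of the box encodes alanine, and a script found 2 such boxes in each reading frame. In Aqp11 the third codon encodes cysteine.

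The deleted gene was checked first. Atp4b lay between 2139 and 5738 CPM in the WT libraries and between 2.28 and 40.6 CPM in the KO libraries, where CPM is the count scaled to a common library size after TMM normalization. Total estimated counts were between 6065084 and 21945124 per library, and 3 counts, taken as the smallest signal, corresponded to 0.137 CPM in the deepest and 0.495 CPM in the shallowest. This floor covers counting error only. Markers of the corpus were present: 8 parietal cell markers, without the deleted gene, summed to 6448 to 14371 CPM in WT and 3958 to 10439 CPM in KO libraries. Libraries WT_117_WT_YF and WT_118_WT_YF, called the antrum-marked WT/NTZ pair here, stood apart, since gastrin (Gast) was at 40.0 and 31.3 CPM in them and no higher than 0.340 CPM in the other WT/NTZ libraries. Gastrin was also raised in WT_120_WT_PEG (14.6 CPM) and in KO/NTZ 36 (12.1 CPM). A fit without these 4 libraries left the number of members called the same in all 5 comparisons. KO/PEG 46 had the highest share of mitochondrial counts, 14.5% against 2.39% to 7.84% in the other KO/PEG libraries. Haemoglobin and other erythroid genes summed to 4116 CPM in KO/PEG 46 and 3774 CPM in KO/PEG 52, with a KO/PEG median of 297.1 CPM.

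The libraries also differed in how expression depended on transcript length. The slope of log2 expression on log2 length, centred per gene, was above 0 in all 20 WT libraries, between 0.056 and 0.323, and below 0 in 23 of the 24 KO libraries, the exception being KO/PEG 46 at 0.155. Length slope and genotype cannot be told apart in these libraries. A fit with the slope as a covariate, added after the data were seen, is given beside each member's genotype result that it changes. It is also given beside the list counts of KO/PEG against WT/PEG that it changes, and beside some counts of the other comparisons. With it 28.6% of all genes passed in KO/PEG against WT/PEG.

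The members ranked differently in the 2 genotypes. On the length-scaled level (TPM, the counts divided by annotated transcript length and scaled to a common total), Aqp3 was the highest member in every group. In WT/PEG it stood at 34.1 ± 16.3 (SD, n = 11), followed by Aqp11 at 5.53 ± 0.827, Aqp4 at 5.18 ± 2.35 and Aqp1 at 4.58 ± 1.06, whose mean ± SD ranges overlapped, and by Aqp5 at 0.364 ± 0.318 and Aqp8 at 0.297 ± 0.116, which overlapped likewise. The order in WT/NTZ was Aqp3 at 47.6 ± 28.5, Aqp11 at 5.69 ± 1.28, Aqp1 at 4.09 ± 1.18, Aqp4 at 3.61 ± 1.78, Aqp5 at 1.17 ± 1.61 and Aqp8 at 0.388 ± 0.177 (SD, n = 9), and neighbours from Aqp11 downwards overlapped in their spread.

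In KO/PEG, Aqp3 was at 86.5 ± 30.8 and Aqp5 at 48.2 ± 40.4 (SD, n = 13), which overlapped, and Aqp5 exceeded Aqp3 in 4 of the 13 libraries. Aqp1 at 6.42 ± 3.27 and Aqp11 at 4.88 ± 1.23 came next and overlapped, Aqp4 was at 1.63 ± 2.18 and Aqp8 at 0.332 ± 0.269. In KO/NTZ, Aqp3 at 107.8 ± 31.8 and Aqp5 at 89.8 ± 54.2 overlapped in their spread (SD, n = 11). Aqp11 at 5.44 ± 1.24 and Aqp1 at 4.16 ± 1.78 followed, and Aqp4, at 0.266 ± 0.301, overlapped with Aqp8 at 0.381 ± 0.239. The annotated Aqp11 transcript used here is incomplete at its 5′ end, so the rank of this gene by length is less certain than that of the others.

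**Figure D1:**
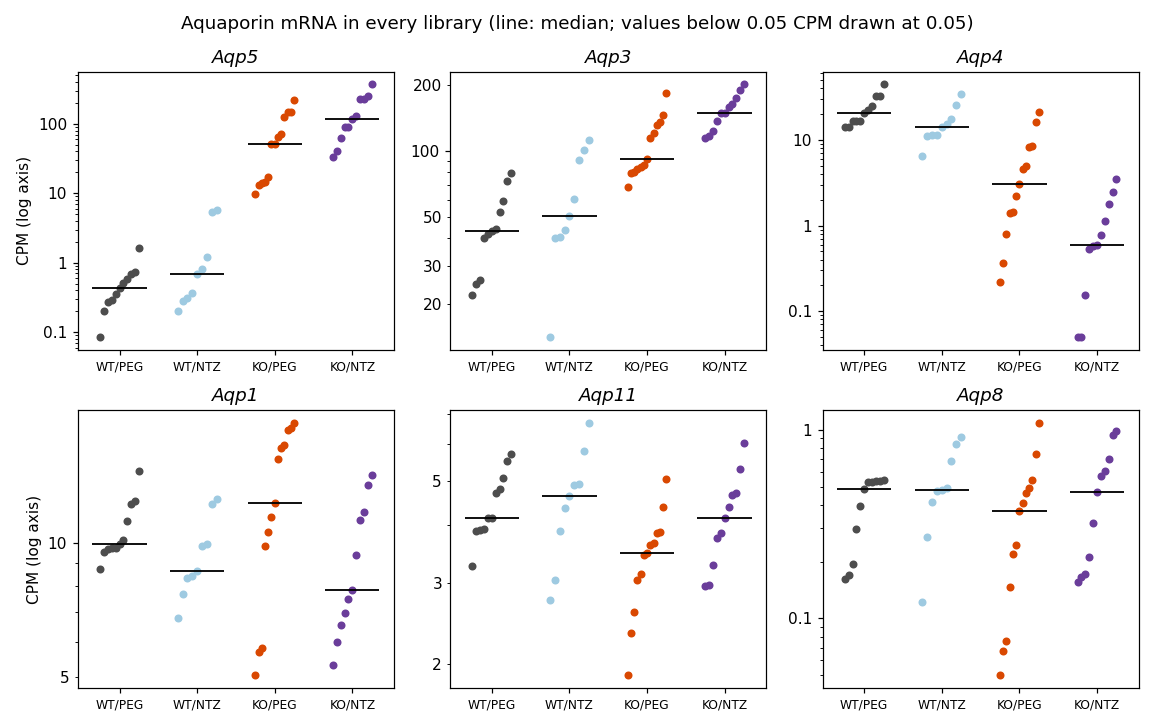
Normalised read count (CPM, log axis) of each member in every library of the 4 groups, with 1 point per library and a line at the group median; values below 0.05 CPM are drawn at 0.05. Aqp5 separates the genotypes completely, from at most 5.78 CPM in WT to at least 9.67 CPM in KO, and Aqp4 falls from a WT/PEG median of 20.6 CPM to a KO/NTZ median of 0.587 CPM.

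The first comparison, KO/PEG with WT/PEG, asks how loss of the pump subunit and of acid secretion altered the members. Of the 5 members tested, 4 passed the threshold of an adjusted p under 0.05 (edgeR quasi-likelihood, Benjamini-Hochberg over all genes). The share of all genes that passed in this comparison was 74.7%, so a count of 4 in 5 is close to the background. Aqp5 and Aqp3 rose and Aqp4 and Aqp11 fell, where 37.5% of all genes passed as higher and 37.2% as lower. The median log2 fold change of the 5 was 0.23, and that of all genes tested was -0.00. The ranges of KO/PEG and WT/PEG were apart for 1 member, Aqp5, and for 14.3% of all genes tested.

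Aqp5, the apical channel of secretory glands, lies on chromosome 15 from 99590782 to 99594829, plus strand, between Aqp2 and Aqp6. In WT/PEG it was low, with a lowest value of 0.0853 CPM, a median of 0.427 and a highest of 1.61 CPM, which are between 1 and 30 counts. The highest was in WT_120_WT_PEG, the WT/PEG library with gastrin, and the next was 0.738 CPM. In KO/PEG its lowest value was 9.67 CPM, the median 51.6 CPM and the highest 221.1 CPM. All 13 KO/PEG libraries were above all WT/PEG libraries, and the KO/PEG values themselves spread over more than an order of magnitude.

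The difference was 7.01 ± 0.68 on the log2 scale (SE, adjusted p = 1.1e-11), and its size rests on few counts in the WT/PEG libraries, of which 2 were below 3 counts. With the length slope as a covariate it was 3.78 (adjusted p = 4.17e-04), and without the 4 libraries with gastrin it was 7.47 (adjusted p = 4.97e-12). Nearly all of this signal belonged to a single transcript, ENSMUST00000169082, which was at 71.6 ± 65.6 CPM in KO/PEG (SD, n = 13) and passed by itself at 7.28 ± 0.83 (SE, adjusted p = 1.89e-09). The other transcript in the data, ENSMUST00000088200, reached at most 0.321 CPM in KO/PEG. The neighbours Aqp2, the collecting duct channel, and Aqp6 had at most 6 counts and 1 count in any library.

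Markers of mucous neck cells and of SPEM (spasmolytic polypeptide-expressing metaplasia, in which glands of the corpus take on mucous features) moved with Aqp5. All 8 genes of this list rose in KO/PEG, with a median of 3.81 on the log2 scale, and with the length slope as a covariate 7 rose, with a median of 2.59. Of all genes 37.5% passed as higher without the slope. The study had already reported genes of this list, Tff2 and Clu among them, as higher in KO/PEG. The rise of the list was therefore largely known beforehand and is no separate evidence on Aqp5. The summed level of the 8 was 1939 to 2898 CPM in WT/PEG and 12523 to 60322 CPM in KO/PEG. Clu, the secreted chaperone clusterin, rose by 3.45 ± 0.20 (adjusted p = 4.71e-18), Wfdc2, a secreted protease inhibitor of mucous epithelia, by 5.6 ± 0.41 (adjusted p = 4.33e-15) and Gpx2, an epithelial glutathione peroxidase, by 3.49 ± 0.31 (adjusted p = 8.93e-13). Here and in all bulk values, more cells of a type and more RNA per cell cannot be told apart. Of the 3 antral genes tested, Onecut2, a transcription factor, rose by 2.32 ± 0.34 (adjusted p = 1.45e-07), Nkx6-3 fell by 2.46 ± 0.89 (adjusted p = 0.0121) and Pdx1 did not pass (0.78 ± 0.60, adjusted p = 0.242). With the length slope Onecut2 passed at 3.12 (adjusted p = 3.14e-05) and Nkx6-3 no longer did (-1.52, adjusted p = 0.416). Gastrin, which did not pass the filter, was at 0 in 7 of 11 WT/PEG and 11 of 13 KO/PEG libraries and at most 0.945 CPM in KO/PEG. The part of antral tissue in the Aqp5 values was not tested.

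Within groups, libraries with more of the mucous neck and SPEM markers had more Aqp5. Aqp5 was compared with the mean log2 CPM of the 8 markers by permutation (two-sided, 100000 permutations). Pearson's r was 0.91 in KO/PEG (p = 3e-05, 4.8e-04 after adjustment over 16 relations) and Spearman's rho 0.91 (p = 8e-05, 0.00128 adjusted). In KO/NTZ r was 0.85 (p = 9.5e-04, 0.00507 adjusted) and rho 0.91 (p = 2.7e-04, 0.00216 adjusted). Without the 2 libraries farthest from the median of the markers, r was 0.87 in KO/PEG and 0.80 in KO/NTZ, so neither relation rested on those libraries. In WT/PEG, where Aqp5 was near the floor, r was 0.64 (p = 0.0374, 0.0997 adjusted) and rho 0.47 (p = 0.145, 0.331 adjusted), with r at 0.54 without the 2 farthest. The antrum-marked WT/NTZ pair stood apart from the rest of the group in Aqp5, so no coefficient is given for WT/NTZ.

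The length slope moved with Aqp5 too, in a family of 12 relations added after the data were seen. In KO/NTZ r was -0.81 (permutation p = 0.00334, 0.02 adjusted), rho was -0.76 (p = 0.00892, 0.0646 adjusted), and r was -0.72 without the 2 farthest libraries. In KO/PEG r was -0.57 (permutation p = 0.0397, 0.0953 adjusted) and rho -0.57 (p = 0.0451, 0.135 adjusted). In WT/PEG r was 0.18 (permutation p = 0.582, 0.608 adjusted) and rho 0.19 (p = 0.575, 0.737 adjusted), and for WT/NTZ no coefficient is given for the reason above. Without the 2 farthest libraries r was -0.38 in KO/PEG and 0.27 in WT/PEG. The part of the slope in the relation to the markers was not tested.

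**Figure D2:**
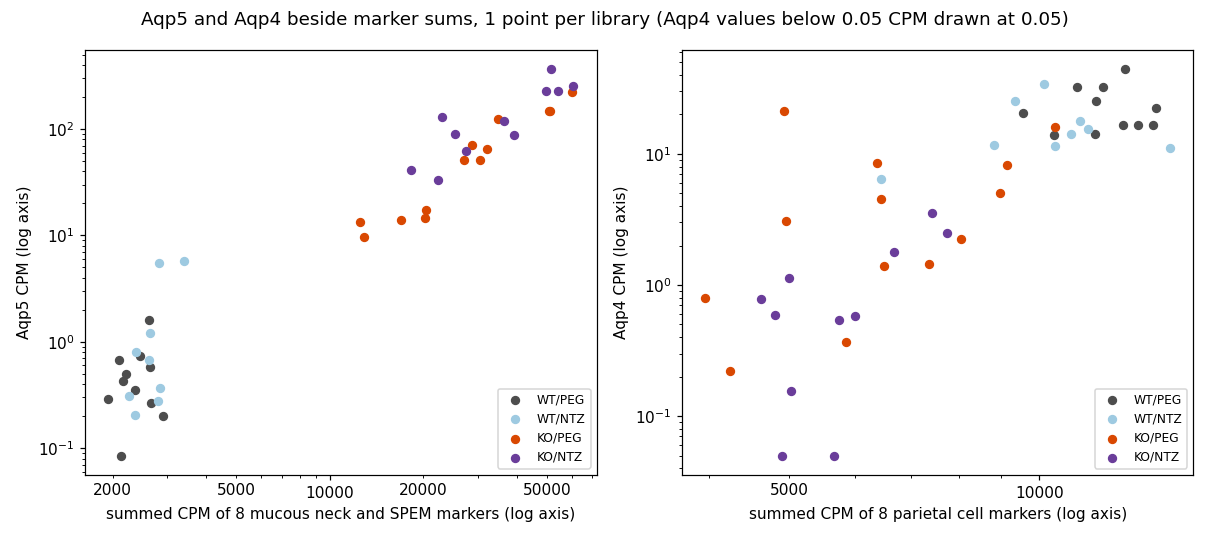
Left, Aqp5 against the summed CPM of 8 mucous neck and SPEM markers; right, Aqp4 against the summed CPM of 8 parietal cell markers, without Atp4b; both axes are log axes and each point is 1 library of the group shown by its colour. Aqp5 is higher in KO libraries with larger marker sums, up to 367.9 CPM, and Aqp4 in KO/PEG 46, at 21.3 CPM, lies above libraries of similar parietal sum.

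Aqp3, the glycerol-permeable channel, lies on chromosome 4 from 41092722 to 41098183, minus strand. It ranged from 22.2 CPM through a median of 43.3 to 79.3 CPM in WT/PEG, and from 68.8 through 91.8 to 183.5 CPM in KO/PEG. The ranges met, since 12 of the 13 KO/PEG libraries exceeded the WT/PEG maximum, held by WT_120_WT_PEG, and KO_109_KO_PEG did not. The log2 difference was 1.23 ± 0.22 (SE, adjusted p = 6.36e-06), or 2.35-fold. With the length slope as a covariate it was 0.66 (adjusted p = 0.215) and no longer passed.

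The protein-coding transcript of Aqp3, ENSMUST00000055327, held 95.4% of the gene's counts in WT/PEG and 97.5% in KO/PEG and rose by 1.21 ± 0.23 (adjusted p = 2.2e-05). The retained-intron transcript ENSMUST00000154722 had a log2 difference of 0.30 ± 0.82 (adjusted p = 0.774). Surface mucous epithelium, a site of Aqp3 named above, had 6 markers tested. Of these 4 fell and 1 rose in KO/PEG, with a median of -1.17, where 37.2% of all genes passed as lower. The counts were the same with the length slope, with a median of -1.43, and the gene that rose in that fit was Gkn3 (5.31, adjusted p = 7.44e-09). The sum of the 7 markers of the list had a median of 105074 CPM in WT/PEG and 51979 CPM in KO/PEG. The part of these cells in the Aqp3 values was not tested. Squamous epithelium, which also carries Aqp3, was represented by 12 markers that summed to 5.44 to 632 CPM in WT/PEG and 164.1 to 1432 CPM in KO/PEG. Of them Ly6d rose and Dsg3, a squamous desmosome cadherin, fell, and the other 10 did not pass. With the length slope Ly6d rose, Dsg3 did not pass (-1.18, adjusted p = 0.676) and 2 others fell, Krt4 and Lor. Within groups, Aqp3 and the mean of the squamous markers gave an r of -0.43 and 0.33 in WT mice on PEG and NTZ and of -0.29 and 0.53 in KO mice, with adjusted permutation p from 0.165 to 0.446, and rho of -0.25, 0.15, 0.15 and 0.25, with adjusted permutation p from 0.685 to 0.755. Without the 2 farthest libraries r was -0.30, 0.04, 0.48 and -0.25, so no relation was shown.

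Aqp4, the basolateral channel of parietal cells, lies on chromosome 18 from 15389496 to 15410982, minus strand, where an antisense gene, AC133525.2, overlaps it. Of its 11 annotated transcripts 1, ENSMUST00000079081, was in the data, and the others were not analysed here. Whether counting used strand is not given in the sources used here, so reads of the antisense gene could not be told from those of Aqp4. In WT/PEG Aqp4 ran from 14.0 CPM through a median of 20.6 to 44.5 CPM, and in KO/PEG from 0.219 through 3.06 to 21.3 CPM. In KO/PEG 11 of 13 libraries were below every WT/PEG library, and the remaining ones were KO/PEG 46 at 21.3 CPM and KO_144_KO_PEG at 16.2 CPM.

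Aqp4 fell by 2.03 ± 0.46 on the log2 scale (SE, adjusted p = 1.27e-04), a 4.09-fold lower level. Without KO/PEG 46 the log2 difference was -2.41 (adjusted p = 6.57e-06). With the length slope as a covariate it was 0.16 (adjusted p = 0.897), so the call and the direction were lost. The Aqp4 transcript is 5054 bases long, the longest of the member transcripts. The part of transcript length in the Aqp4 values was not tested, and 1 KO library, KO/PEG 46, had a slope above 0. Of 8 parietal cell markers, counted without the deleted Atp4b, 7 fell and Car2, carbonic anhydrase 2, rose by 0.30 ± 0.11 (adjusted p = 0.0146). Their median was -1.31, and 37.2% of all genes passed as lower. With the length slope as a covariate 3 fell and 1 rose, with a median of -0.69, where 28.6% of all genes passed. Atp4a, the catalytic pump subunit, fell by 1 ± 0.17 (adjusted p = 1.86e-06), which was a smaller log2 difference than that of Aqp4, although the difference between the 2 genes was not tested.

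Within KO/PEG, Aqp4 followed the mean of the 9 parietal markers, Atp4b included, with r = 0.82 (permutation p = 5.4e-04, 0.00432 adjusted over 16 relations) and rho = 0.80 (p = 0.00154, 0.00821 adjusted), and r was 0.70 without the 2 farthest libraries. In KO/NTZ r was 0.66 (permutation p = 0.0282, 0.0903 adjusted), rho 0.45 (p = 0.166, 0.331 adjusted), and r 0.25 without the 2 farthest, so that value rested on those libraries. With Atp4b left out of the markers, r was 0.83 in KO/PEG (permutation p = 5e-04, 0.004 adjusted; rho = 0.77, p = 0.00264, 0.0141 adjusted) and 0.75 in KO/NTZ (permutation p = 0.00871, 0.0279 adjusted; rho = 0.67, p = 0.0287, 0.0766 adjusted), or 0.73 and 0.50 without the 2 farthest libraries. No relation was shown in WT/PEG (r = 0.16, permutation p = 0.638, 0.68 adjusted; rho = 0.14, p = 0.695, 0.755 adjusted) or in WT/NTZ (r = 0.45, exact permutation p = 0.225, 0.327 adjusted; rho = 0.18, p = 0.644, 0.755 adjusted). Without the 2 farthest libraries r was 0.36 in WT/PEG and -0.57 in WT/NTZ. With the length slope, Aqp4 gave r = 0.61 in KO/PEG (permutation p = 0.0259, 0.0953 adjusted over 12 relations; rho = 0.45, p = 0.13, 0.231 adjusted), which was 0.31 without the 2 farthest libraries. In KO/NTZ, WT/PEG and WT/NTZ r was 0.60, 0.28 and 0.20 (adjusted permutation p from 0.0953 to 0.608), rho was 0.48, 0.17 and -0.15 (adjusted permutation p from 0.231 to 0.772), and r without the 2 farthest was 0.27, 0.15 and -0.67.

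**Figure D3:**
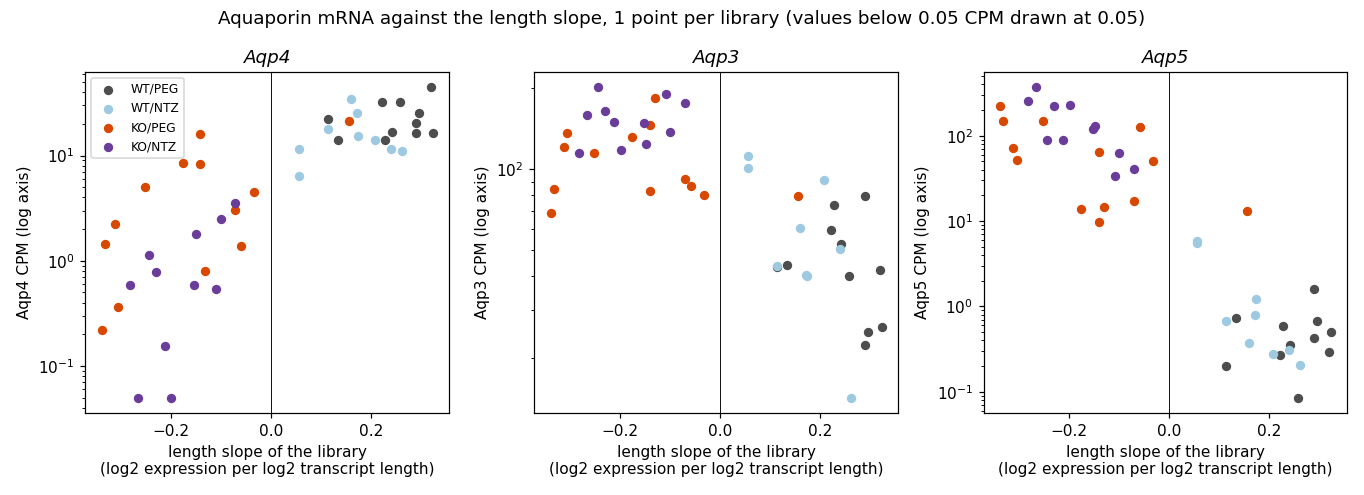
CPM (log axis) of Aqp4, Aqp3 and Aqp5 against the length slope of the library, 1 point per library, coloured by group; values below 0.05 CPM are drawn at 0.05. WT libraries lie at slopes of 0.056 to 0.323 and KO libraries at -0.338 to -0.033 apart from KO/PEG 46 at 0.155, so genotype and slope overlap in a single KO library.

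Aqp11, the channel of the endoplasmic reticulum, lies on chromosome 7 from 97724006 to 97738289, minus strand, and 1 of its 5 annotated transcripts was in the data. It was weakly expressed in all groups, with a range of 3.26 to 5.71 CPM and a median of 4.14 in WT/PEG, and of 1.89 to 5.04 CPM and a median of 3.48 in KO/PEG. The ranges overlapped and 11 of 13 KO/PEG libraries were below the WT/PEG median. Its fitted level was 0.77 times that in WT/PEG (log2 difference -0.38 ± 0.14, adjusted p = 0.0149). With only KO animals numbered below 100 it was -0.33 (adjusted p = 0.107) and did not pass, and with the length slope as a covariate it was -1.01 (adjusted p = 0.00294).

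Aqp1, the channel of endothelium and red cells, lies on chromosome 6 from 55336432 to 55348555, plus strand. In WT/PEG it ran from 8.73 CPM through a median of 9.92 to 14.4 CPM, and in KO/PEG from 5.06 through 12.3 to 18.5 CPM. The KO/PEG libraries lay on both sides of the WT/PEG range, 6 above it and 3 below it. The log2 difference was 0.23 ± 0.18 (SE, adjusted p = 0.244), which did not pass. With only KO animals numbered below 100 it was 0.60 (adjusted p = 0.0021), and with the number class as a covariate 0.09 (adjusted p = 0.701). No WT/PEG animal had a number below 100, so in the first of these fits number class and genotype cannot be told apart. The 6 KO/PEG libraries with such a number lay between 12.3 and 18.1 CPM and the 7 with higher numbers between 5.06 and 18.5 CPM. The number is only what the labels give, and what else differed between the animals was not tested.

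Of the 10 endothelial markers, 6 rose and 3 fell, so the list had no single direction. Of all genes 37.5% passed as higher and 37.2% as lower. In edgeR with the length slope as a covariate none of the 10 passed. Egfl7, a secreted endothelial protein, rose by 0.89 ± 0.16 (adjusted p = 4.45e-06) and Kdr, the VEGF receptor, fell by 0.96 ± 0.17 (adjusted p = 5.93e-06). All 5 erythroid genes tested rose, with a median of 2.15 on the log2 scale, or 3 with a median of 0.94 without KO/PEG 46 and 52. KO_109_KO_PEG, KO/PEG 46 and KO/PEG 52, which held the 3 largest erythroid sums, had 18.5, 18.1 and 16.3 CPM of Aqp1. KO/PEG 45 and 32, with erythroid sums of 212.5 and 222.9 CPM, below the group median, had 17.8 and 16.5 CPM. Without KO/PEG 46 and 52 the Aqp1 difference was 0.14 (adjusted p = 0.514). Aqp1 and the mean of the endothelial markers gave r = 0.62 in WT/PEG (permutation p = 0.0446, 0.102 adjusted; rho = 0.75, p = 0.0117, 0.0373 adjusted), and r = 0.77 without the 2 farthest libraries. In WT/NTZ, KO/PEG and KO/NTZ r was 0.08, 0.49 and 0.29, with adjusted permutation p from 0.165 to 0.83, rho was -0.08, 0.42 and 0.28, with adjusted permutation p from 0.331 to 0.843, and r without the 2 farthest was -0.40, 0.20 and 0.38.

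Aqp8, known from colon, liver and pancreas, lies on chromosome 7 from 123462291 to 123468004, plus strand. Its counts were 2 to 7 in WT/PEG and 2 to 9 in WT/NTZ, with 2 libraries below 3 counts in each. The KO/PEG libraries held 0 to 17 counts and the KO/NTZ libraries 1 to 14, with 5 and 3 libraries below 3 counts. The highest value was 1.09 CPM. In a fit with no filter on low counts its log2 difference between KO/PEG and WT/PEG was 0.01 ± 0.35 (adjusted p = 1), and a change was not detectable at this depth. The 10 exocrine pancreas markers, which include genes that stomach glands may share, summed to 85.9 to 279.6 CPM in the PEG groups, and the 7 hepatocyte markers to 62.7 to 295.2 CPM.

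Of the 6 other aquaporin genes of the mouse examined, 1, Aqp7, was tested. Aqp7 is the glycerol channel of adipocytes. It ran from 0.747 to 3.61 CPM in WT/PEG and from 0 to 1.89 CPM in KO/PEG, and fell by 1.61 ± 0.40 on the log2 scale (adjusted p = 4.54e-04). The difference with the slope as a covariate was -1.10 (adjusted p = 0.23). Of 6 adipocyte markers tested, 2 fell and 4 did not pass, and their sum was 45.5 to 352.6 CPM in WT/PEG and 33.2 to 261.5 CPM in KO/PEG. Of all genes 37.2% passed as lower. With the slope none of the 6 passed. Mip, Aqp2, Aqp6, Aqp9 and Aqp12 did not pass the filter, and the highest value among them was 1.075 CPM, of Aqp9, the glycerol channel of liver, in a WT/NTZ library.

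**Figure D4:**
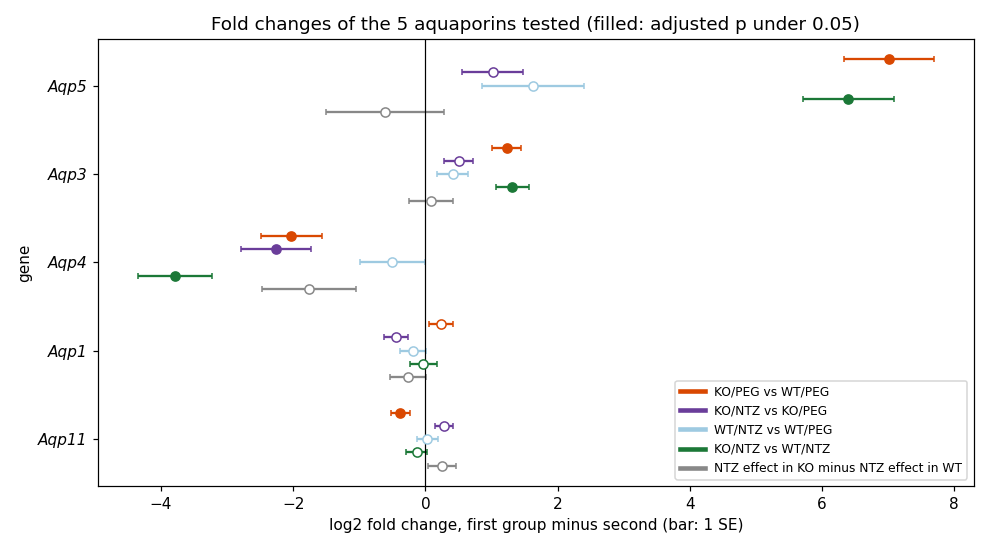
Log2 fold change (first group minus second, bars 1 SE) of the 5 members tested in 5 comparisons, with filled points where the adjusted p was under 0.05. Both KO against WT comparisons show Aqp5 and Aqp3 to the right and Aqp4 to the left of 0, and of the NTZ comparisons only that in KO mice has a filled point, Aqp4 at -2.26.

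The second comparison, KO/NTZ with KO/PEG, asks what blocking the gastrin receptor changed in mice without the pump subunit. Of the 5 members, 1 passed, Aqp4, where 5.56% of all genes passed and 2.6% passed as lower. The median log2 fold change of the 5 was 0.28 and that of all genes -0.01. In KO/NTZ Aqp4 was at 0 in its lowest libraries, had a median of 0.587 and reached at most 3.53 CPM, against a KO/PEG median of 3.06 CPM. These are 0 to 58 counts, and 3 of the 11 libraries were below 3 counts. The groups overlapped, and 10 of the 11 values in KO/NTZ lay under the median of KO/PEG.

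The log2 difference of Aqp4 was -2.26 ± 0.53 (SE, adjusted p = 0.00638), a 4.8-fold lower fitted level. It passed with the length slope as a covariate (-1.99, adjusted p = 0.00505), with only KO animals numbered below 100 (-2.18, adjusted p = 0.0181), without KO/PEG 46 (-1.88, adjusted p = 0.0188) and without KO/PEG 46 and 52 (-1.76, adjusted p = 0.0376). It did not pass when only the KO groups were fitted (-2.32, adjusted p = 0.0701). Of the 8 parietal cell markers other than Atp4b, 1 fell, Clic6, an intracellular channel protein of parietal cells (-0.72 ± 0.19, adjusted p = 0.0163), and Atp4a had a difference of -0.36 ± 0.17 (adjusted p = 0.18). With the length slope 3 of the 8 fell, Clic6 (-0.72, adjusted p = 0.0065), Esrrg (-0.70, adjusted p = 0.0229) and Kcne2 (-0.56, adjusted p = 0.0355). The sum of the 8 markers was 4614 to 7732 CPM in KO/NTZ and 3958 to 10439 CPM in KO/PEG.

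The other members did not pass in KO/NTZ against KO/PEG. Aqp5 was at 33.3 to 367.9 CPM with a median of 118.8 in KO/NTZ, and its log2 difference was 1.02 ± 0.46 (adjusted p = 0.157). Among KO animals numbered below 100, which are 6 KO/PEG and 10 KO/NTZ libraries, the Aqp5 medians were 15.9 and 124.5 CPM and the difference passed at 1.96 (adjusted p = 0.0305). With the number class as a covariate it was 1.87 (adjusted p = 0.0187). Of the KO/PEG libraries 7, and of the KO/NTZ libraries 1, had a number of 100 or above, so treatment and number class were unevenly combined. None of the 8 mucous neck and SPEM markers passed in this comparison by edgeR, DESeq2 or limma-trend, with 2 at an unadjusted p under 0.05, and their sum was 18282 to 60870 CPM in KO/NTZ.

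Aqp3 lay between 115.1 and 201.3 CPM in KO/NTZ with a median of 149.6, and all 11 libraries were above the KO/PEG median, with a log2 difference of 0.50 ± 0.22 (adjusted p = 0.152). Aqp1 was at 5.34 to 14.2 CPM with a median of 7.83 and differed by -0.45 ± 0.18 (adjusted p = 0.121). Among animals numbered below 100 the Aqp1 difference was -0.83 (adjusted p = 0.00244), and with the number class as a covariate it was -0.54 (adjusted p = 0.0621). Of the endothelial markers 3 fell, Cdh5, Kdr and Tek, and all 5 erythroid genes fell by edgeR, with a median of -2.09 on the log2 scale. Without KO/PEG 46 and 52 none of the erythroid genes passed in edgeR, with a median of -0.68, and limma-trend on all libraries called 0, where DESeq2 called 5 and an unadjusted p under 0.05 was reached by 5. Aqp11, at 2.95 to 6.04 CPM with a median of 4.16, differed by 0.28 ± 0.14 (adjusted p = 0.206). Aqp8 was again at the floor, with 0.26 ± 0.38 in the fit with no filter (adjusted p = 0.711).

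The third comparison, WT/NTZ with WT/PEG, addresses the receptor antagonist in mice with a working pump. None of the 5 members passed, in edgeR's test, by limma-trend or by DESeq2, and 1.03% of all genes passed. At an unadjusted p under 0.05 there was 1 member, Aqp5, with a difference of 1.63 ± 0.77 (adjusted p = 0.582). Its WT/NTZ values ran from 0.204 through a median of 0.679 to 5.78 CPM, and the antrum-marked pair held the 2 highest values, 5.46 and 5.78 CPM. Without them the difference was -0.02 (adjusted p = 1). The same libraries also held the highest WT/NTZ values of Aqp3, 101.2 and 111.8 CPM, and of Aqp1, 12.5 and 12.2 CPM. The 12 squamous markers summed to a median of 960.3 CPM in WT/NTZ and 21.3 CPM in WT/PEG. WT_117_WT_YF held the highest sum, 4718 CPM, and WT_118_WT_YF was at the WT/NTZ median. Of the 12, 1 passed, as higher. The part of squamous tissue in the Aqp3 values was not tested.

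Aqp3 ranged from 14.2 to 111.8 CPM in WT/NTZ with a median of 50.5 and differed by 0.41 ± 0.24 (adjusted p = 0.794). Aqp4 ran from 6.45 to 34.3 CPM with a median of 14.2, its lowest value being in WT_118_WT_YF, and differed by -0.50 ± 0.49 (adjusted p = 0.933). Aqp1, at 6.78 to 12.5 CPM, differed by -0.19 ± 0.20 (adjusted p = 0.933), and Aqp11, at 2.76 to 6.69 CPM, by 0.03 ± 0.16 (adjusted p = 0.984). These are differences that the spread of the libraries could not resolve.

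The fourth comparison, KO/NTZ with WT/NTZ, shows the genotypes under the antagonist. It shares no library with KO/PEG against WT/PEG. Of the 5 members 3 passed, where 72.4% of all genes passed, 35.6% as higher and 36.8% as lower. Aqp5 and Aqp3 rose and Aqp4 fell, and the same 3 were the members whose ranges did not overlap, as was so for 26.8% of all genes. The median log2 fold change was -0.03 for the 5 and -0.03 for all genes.

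Aqp5 was 6.4 ± 0.69 higher on the log2 scale (adjusted p = 2.47e-10), 8.07 without the antrum-marked WT/NTZ pair (adjusted p = 5.49e-11) and 3.96 with the length slope as a covariate (adjusted p = 7.56e-05). Aqp3 was 1.31 ± 0.25 higher (adjusted p = 1.16e-05), or 0.87 with the slope (adjusted p = 0.0833). Of the 12 markers of squamous epithelium, which carries Aqp3, 7 fell and 1 rose, and their part in the Aqp3 values was not tested. Aqp4 fell by 3.79 ± 0.56 (adjusted p = 2.06e-07), a 13.9-fold lower fitted level. With the slope it was -1.87 (adjusted p = 0.0554), on the same side of 0 but past the threshold no longer. Aqp1 (-0.03 ± 0.20, adjusted p = 0.899) and Aqp11 (-0.13 ± 0.16, adjusted p = 0.465) did not pass. With the slope Aqp11 passed at -0.65 (adjusted p = 0.0414) and Aqp1 was at 0.16 (adjusted p = 0.768).

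The fifth comparison tested the genotypes for a difference in their response to NTZ. None of the 5 members passed by edgeR, DESeq2 or limma-trend, and 0.96% of all genes passed in edgeR. At an unadjusted p under 0.05 there was 1 member, Aqp4, whose NTZ effect in KO minus that in WT mice was -1.76 ± 0.71 on the log2 scale (p = 0.0171 in edgeR's test, adjusted p = 0.272). So the fall of Aqp4 under NTZ passed in KO mice and not in WT mice, but the effects were not shown to differ. When the slope was a covariate this difference was -2.03 (adjusted p = 0.0342), in a fit in which 10.6% of all genes passed. For Aqp5 it was -0.61 ± 0.89, for Aqp3 0.08 ± 0.33, for Aqp1 -0.26 ± 0.27 and for Aqp11 0.25 ± 0.21, with adjusted p from 0.725 to 0.955.

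Genes that work with aquaporins were counted by list, to be read against the 74.7% of all genes that passed in KO/PEG against WT/PEG, 37.5% as higher and 37.2% as lower. The dystrophin complex anchors Aqp4 at the membrane, and the 5 of its genes reported here all fell in KO/PEG against WT/PEG, with a median of -1.18. Dag1, dystroglycan, fell by 0.71 ± 0.07 (adjusted p = 2.37e-11), Utrn, utrophin, by 1.14 ± 0.13 (adjusted p = 4.79e-10), Dtna, dystrobrevin alpha, by 1.18 ± 0.14 (adjusted p = 6.13e-10) and Sntb1, beta-1 syntrophin, by 2.5 ± 0.35 (adjusted p = 5.04e-08). In the fit with the length slope 1 of the 5 passed, Dag1 (-0.34, adjusted p = 0.026), and the median was -0.16. Smooth muscle also holds this complex, and all 6 smooth muscle markers fell too, with sums of 2062 to 3653 CPM in WT/PEG and 741.6 to 2906 CPM in KO/PEG. With the slope 2 of the 6 passed. The part of smooth muscle in the lower values was not tested. In KO/NTZ against KO/PEG, Sntb1 fell again by 1.71 ± 0.41 (adjusted p = 0.00715) and the other 4 did not pass, while 3 of 6 smooth muscle markers rose. In that comparison 2 of the 5 anchoring genes fell with the slope, Sntb1 among them. Without KO/PEG 46 and 52 none of the 5 passed.

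Enteric glia are another site of aquaporins in the gut wall. Of 6 glial markers 5 fell in KO/PEG, or 3 with the slope, where 37.2% of all genes passed as lower without the slope. Their sum was 5.48 to 10.9 CPM in KO/PEG against 13.7 to 23.4 CPM in WT/PEG. In KO/NTZ against KO/PEG 2 of the 6 rose, where 5.56% of all genes passed. The part of enteric glia in the aquaporin values was not tested.

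Of the genes of parietal cell ion transport, 9 of 11 fell and 1, Car2, rose in KO/PEG, with a median of -1.03, and with the slope 4 fell and 2 rose. Slc26a7, a basolateral chloride-bicarbonate exchanger, fell by 3.5 ± 0.30 (adjusted p = 4.83e-13) and Slc26a9, an apical chloride transporter, by 2.02 ± 0.17 (adjusted p = 2.77e-13). Kcnq1, the potassium channel that feeds the pump, did not pass (-0.11 ± 0.12, adjusted p = 0.393). In KO/NTZ against KO/PEG 3 of the 11 fell, Kcnq1 by 0.57 ± 0.12 (adjusted p = 0.00189), Clic6 as given above and Slc12a2, the sodium-potassium-chloride cotransporter, by 0.59 ± 0.18 (adjusted p = 0.0455). With the slope 5 of the 11 fell. Without KO/PEG 46 and 52, 2 of the 11 fell and Slc12a2 did not pass.

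The list of epithelial fluid secretion and absorption was split, with 5 of 10 genes higher and 4 lower in KO/PEG, or 6 and 2 with the slope. Cftr, the chloride channel that drives fluid secretion, rose by 4.93 ± 0.54 (adjusted p = 1.94e-10), from a mean of 0.165 to 5.09 CPM. The WT/PEG mean lay within the floor of 0.137 to 0.495 CPM, so the size of this rise rests on few counts. Scnn1b, a subunit of the epithelial sodium channel, rose by 2.7 ± 0.27 (adjusted p = 2.73e-11) and Slc5a1, the sodium-glucose cotransporter, by 2.49 ± 0.25 (adjusted p = 3.08e-11). Scnn1a, the alpha subunit of the same sodium channel, fell by 0.86 ± 0.10 (adjusted p = 3.74e-10). With the slope these were 4.42 for Cftr, 2.53 for Scnn1b, 1.98 for Slc5a1 and -0.98 for Scnn1a, each past the threshold. In KO/NTZ Scnn1a rose by 0.53 ± 0.10 over KO/PEG (adjusted p = 4.43e-04).

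Of the 6 genes of the osmotic response tested, 4 fell and 1 rose in KO/PEG, with a median of -0.69, and with the slope 2 rose, none fell and the median was -0.02. Slc5a3, which imports the osmolyte inositol, fell by 1.61 ± 0.25 (adjusted p = 3.19e-07), Nfat5, the transcription factor of hypertonic stress, fell by 0.86 ± 0.21 (adjusted p = 2.89e-04), and Akr1b3, aldose reductase, which makes sorbitol, rose by 0.48 ± 0.10 (adjusted p = 3.21e-05). With the slope Nfat5 was at 0.75 (adjusted p = 0.00796), in the other direction, and Slc5a3 (-0.30, adjusted p = 0.567) and Akr1b3 (-0.03, adjusted p = 0.921) did not pass. In KO/NTZ against KO/PEG 1 of the 6 fell, Slc6a6, the taurine transporter (-0.59 ± 0.16, adjusted p = 0.0211). With the slope 2 of the 6 fell, Slc6a6 among them, and without KO/PEG 46 and 52 none of the 6 passed. In WT/NTZ against WT/PEG none of the genes of these 4 lists passed by edgeR, DESeq2 or limma-trend, and at an unadjusted p under 0.05 there were 3 genes of fluid secretion and absorption and none of the others.

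**Figure D5:**
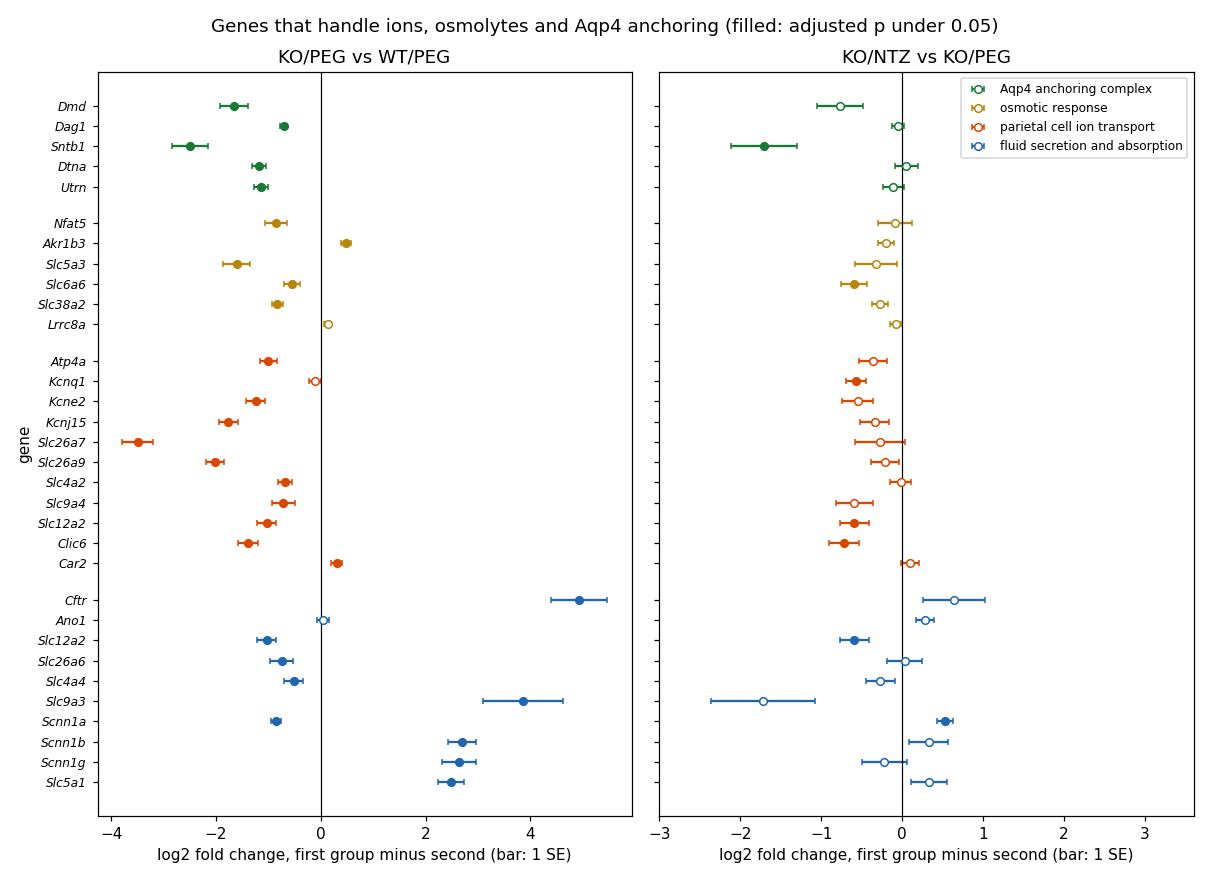
Log2 fold change (first group minus second, bars 1 SE) of genes that anchor Aqp4, handle osmolytes or move ions, in KO/PEG against WT/PEG (left) and KO/NTZ against KO/PEG (right, on its own axis range), with filled points where the adjusted p was under 0.05. On the left the anchoring genes all lie below 0 and Cftr lies farthest to the right at 4.93, and on the right few points are filled, Sntb1 at -1.71 being the lowest of them. Sntb1 did not pass on the right in a fit without KO/PEG 46 and 52. The size of the Cftr rise rests on few counts in WT/PEG.

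The genes whose values followed each member most closely were found from the deviations of log2 CPM from the 4 group means over all 44 libraries, as a description with no test. For Aqp5 they were Amhr2 (r = 0.82), Wfdc18 (r = 0.82) and Adra2a (r = 0.81). For Aqp4 they were Hdgfl3 (r = 0.88), Tmem161b (r = 0.83) and B4galnt2 (r = 0.83), and for Aqp3 Akr1b8 (r = 0.86), Arhgap27 (r = 0.85) and Rab3b (r = 0.84). Aqp1 was closest to Cp, Lix1l and Vim (r = 0.73, 0.70 and 0.67) and Aqp11 to Nadk, Gsto1 and Slc35f6 (r = 0.70, 0.70 and 0.66). All of these points share library, depth and length slope. Aqp4 and Aqp5 had negative coefficients within KO/PEG (r = -0.55, permutation p = 0.0556, 0.0953 adjusted; rho = -0.59, p = 0.0389, 0.135 adjusted) and KO/NTZ (r = -0.60, permutation p = 0.0547, 0.0953 adjusted; rho = -0.45, p = 0.168, 0.252 adjusted), but neither relation passed after adjustment over 12 relations. Without the 2 farthest libraries r was -0.30 in KO/PEG and -0.63 in KO/NTZ. In WT/PEG r was -0.48 (permutation p = 0.136, 0.204 adjusted) and rho -0.59 (p = 0.0608, 0.146 adjusted), with r at -0.55 without the 2 farthest.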

How the data were processed

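The authors assigned single reads of a stranded mRNA kit to GRCm38 transcripts with kallisto 0.42.4 and deposited estimated counts, not normalized, for 94080 transcripts. The strand setting is not given in the sources used here. For this report 92372 transcripts were paired with GENCODE vM21 genes, the counts were summed per gene name and rounded, and genes with low counts were left out (filterByExpr, minimum count 10, minimum total 15). The 1708 unpaired transcripts held 0.329% to 1.3% of a library's counts. The 44 libraries were grouped by their labels, normalized by TMM and fitted in one model of group means with edgeR 4.0.16 in R 4.3.3. Quasi-likelihood p-values were adjusted by Benjamini-Hochberg over all 14901 genes, with a threshold of 0.05. Single transcripts were fitted likewise. The authors' own test, Sleuth, needs resampled count estimates that were not used here. Relations to markers used log2 CPM with a prior count of 2. The exact test over all pairings served the group of 9, and 100000 permutations the others. In the WT/PEG pair with number 172 the chi-square of the counts was 19.4 per degree of freedom, rank 9 of 55 WT/PEG pairs from the lowest, which is more than sampling noise. Whether they come from one mouse is not given in the sources used here, and they were kept as separate samples, with their sum as an alternative.

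The members and lists were chosen with earlier results of these data known. Named genes were the 6 members, the other aquaporins, Atp4b and Atp4a, examples from each list taken from those with small p, and the 3 genes most alike each member. Gene lists for ion and fluid transport, osmotic response and Aqp4 anchoring were tested as counts only. A gene of the anchoring list is not reported here. Alternatives were RLE normalization, no filter, only the groups compared, DESeq2, limma-trend, the 172 pair summed, both libraries numbered 110 left out, only KO animals numbered below 100, and that number class as a covariate. Fits with the length slope, without KO/PEG 46, without KO/PEG 46 and 52, without WT/NTZ 117 and 118, and without the 4 libraries with gastrin above 10 CPM were added after the data were seen, as was leaving Atp4b out of the parietal markers. The statistical steps were tested on simulated data.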

Additional observations from a re-analysis of the deposited data

Results flagged for a closer look

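Scnn1a, the alpha subunit of the epithelial sodium channel, responded to NTZ differently in the genotypes by a test of the difference itself. The NTZ effect was 0.65 ± 0.14 higher on the log2 scale in KO than in WT mice (SE, adjusted p = 0.0167, edgeR). With the length slope as a covariate it was 0.67 (adjusted p = 0.00667). Without the 4 libraries with gastrin it did not pass, and neither did the other genes among the 10 of fluid secretion and absorption tested. In KO mice NTZ raised Scnn1a from a mean of 50 to 72.2 CPM, and all 11 KO/NTZ libraries were above the KO/PEG median. In WT mice the effect was -0.12 ± 0.11 (adjusted p = 0.931). It was 1 of 37 genes of water and ion handling tested for this difference. Without the slope it was the only one to pass, where 0.96% of all genes passed. With the slope others of these genes passed too, Aqp4, Sntb1, Slc6a6, Slc12a2 and Slc9a3 among them, where 10.6% of all genes passed. The WT/NTZ values of the 6 members were also examined for single stray libraries, and none was found. Such a search can miss libraries that stand apart as a pair, as the antrum-marked WT/NTZ pair did in Aqp5. No conclusion is drawn from it.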

How the results depend on the processing

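No paired analysis was possible because the groups share at most 1 animal number, 110, in KO/PEG and KO/NTZ. Of 344 refits of the member fold changes, 320 kept direction and side of the threshold. RLE normalization, no filter, the summed WT/PEG pair of one animal number and leaving out both 110 libraries changed no member's call or direction. The length slope reduced the members called in KO/PEG against WT/PEG from 4 to 2 and raised those called in the difference of NTZ effects from 0 to 1. It turned the sign of Aqp4 (0.16) in KO/PEG against WT/PEG, of Aqp4 (0.04) and Aqp11 (-0.10) in WT/NTZ against WT/PEG, of Aqp1 (0.16) and Aqp7 (0.09) in KO/NTZ against WT/NTZ and of Aqp5 (0.18) in the difference of NTZ effects, and made Aqp11 pass in KO/NTZ against WT/NTZ (-0.65, adjusted p = 0.0414). In KO/NTZ against KO/PEG the members called were 1, or 0 with only the groups compared, 3 with only KO animals numbered below 100 and 2 with the number class as a covariate. Uncalled values also changed sign without the antrum-marked WT/NTZ pair (Aqp5 -0.02 in WT/NTZ against WT/PEG, Aqp1 0.12 in KO/NTZ against WT/NTZ, Aqp5 1.05 in the difference of NTZ effects), without all 4 libraries with gastrin (Aqp1 0.14 in KO/NTZ against WT/NTZ, Aqp5 0.65 in the difference of NTZ effects), with KO animals below 100 (Aqp3 -0.06 and Aqp5 0.33 in that difference) and with limma-trend (Aqp5 0.53 there). The causes were not tested.

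Over all genes, KO/PEG against WT/PEG gave 11125 calls and 4260 with the length slope, and KO/NTZ against WT/NTZ 10791 and 2958. KO/NTZ against KO/PEG gave 829, and 267 with only the groups compared, 1249 by DESeq2, 1402 with KO animals below 100, 1288 with the number covariate and 1903 with the slope. WT/NTZ against WT/PEG gave 154, and 0 with only the groups compared, 2 by limma-trend, 312 with the number covariate, 35 with the slope and 14 without the antrum-marked pair and 5 without the 4 libraries with gastrin. The difference of NTZ effects gave 274 by DESeq2, 53 by limma-trend, 1577 with the slope and 47 without the antrum-marked pair and 26 without the 4 libraries with gastrin, against 0.96% of all genes in the fit reported above. A fit of only the groups compared gives no difference of NTZ effects, and Aqp5 did not pass its filter in WT/NTZ against WT/PEG. All 16 relations to markers kept their sign and side with a prior count of 0.25. Without Atp4b among the parietal markers, the relation of Aqp4 in KO/NTZ passed (r = 0.75). With the longest transcript as length, 23 of 24 length-scaled levels moved by less than 1 SD, and Aqp11 in KO/NTZ moved to 7.01. Depth limits Aqp8 in all groups, Aqp5 in WT and Aqp4 in KO/NTZ.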

Other observations

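Other tissues that carry aquaporins were present in some libraries. Skeletal muscle, whose fast fibres carry Aqp4, was represented by 5 genes tested, of which 3 rose in WT/NTZ over WT/PEG by edgeR and by DESeq2 and 0 by limma-trend. In that comparison 1.03% of all genes passed in edgeR. Acta1, skeletal actin, rose by 6.18 ± 0.96 on the log2 scale (adjusted p = 6.7e-04, edgeR), and the sum of the 8 markers was 19.8 to 224.5 CPM in WT/NTZ and 14.8 to 26.9 CPM in WT/PEG. With the length slope 1 of the 5 genes passed, Acta1 (5.31, adjusted p = 0.0195, edgeR). Without the 4 libraries with gastrin none of the 5 passed, and their median went from 2.11 to 0.79. Aqp4 in the same comparison differed by -0.50 ± 0.49 (adjusted p = 0.933).

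Leukocytes, among which neutrophils carry Aqp9, were represented by 7 genes tested, of which 4 rose and none fell in KO/PEG over WT/PEG. Of all genes 37.5% passed as higher and 37.2% as lower. Cd68, a macrophage protein, rose by 0.97 ± 0.16 (adjusted p = 1.17e-06) and Cd79a, part of the B cell receptor, by 3.73 ± 0.70 (adjusted p = 1.04e-05). When the length slope was a covariate 3 of the 7 rose, and Cd68 did not pass (0.40, adjusted p = 0.271). Aqp9 stayed at or below 9 counts in every KO/PEG library.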
